A study of Mus musculus with 4 samples.

Results

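The regions described here are places in the mouse embryonic stem cell genome where NF-YA was called from few reads and without either of its partner subunits. The 3 subunits' site lists were pooled, and sites whose neighbouring centres lay within 200 bp were chained into regions. A region was kept when it held NF-YA sites alone and its highest NF-YA site had fewer than 29 tags, a tag being 1 sequenced read kept by the authors' site caller. The members were thus chosen by the NF-YA tag count and by the lists in which a site was called. The rule found 1193 of the 5350 regions (22.3%, exact 95% binomial interval 21.2 to 23.4). They are 70.5% of the 1693 regions with NF-YA alone and hold 25.7% of the 4642 NF-YA sites. Each holds exactly 1 NF-YA site.

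The cells were E14Tg2a, a mouse embryonic stem cell line of strain 129/Ola, at passages 20 to 35, grown in serum medium with leukaemia inhibitory factor. Chromatin was fixed with 1% formaldehyde for 10 min, and each immunoprecipitation took chromatin of 5000000 cells and 2 µg of antibody. By the labels, the NF-YA antibody was a mouse monoclonal and the antibodies to the other subunits were rabbit polyclonals. The 4 samples are 1 library per subunit and 1 input DNA library of fragmented chromatin that was not immunoprecipitated. The NF-YA library had 11479998 tags kept for calling, the NF-YB library 13859303 and the NF-YC library 11390494, against 13767116 input tags. All of this comes from 1 cell line with no replicate library, so no difference below has a replicate check or a test. Intervals cover counting error over sites or regions only. Where they overlap, that does not show the shares to be alike. No expression values were analysed here, so the cell type was not checked against its markers.

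NF-Y is a heterotrimer that recognises the CCAAT box, a motif common in promoters close to the start of transcription. NF-YB and NF-YC pair through histone-fold domains that resemble those of the core histones, and NF-YA joins the pair and makes the sequence-specific contact with DNA. In stem cells and other dividing cells the complex is known for its place at promoters of cell cycle and housekeeping genes. A region is listed here for NF-YA alone when no NF-YB or NF-YC site was called within the chaining distance, which does not show that those subunits were absent.

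The tag counts that chose the members ran from 14, the lowest the caller accepted for NF-YA, to 28. Their median was 18 (quartiles 15 and 22), against 39 (33 and 50.3) for the 500 regions with NF-YA alone and 29 or more tags. Scaled to the kept tags of the library, the members had between 1.22 and 2.44 tags per 1000000 kept tags. The NF-YB list began at 15 tags or 1.08 on this scale, and the NF-YC list at 14 tags or 1.23. The members' NF-YA levels thus lay above the NF-YB minimum and, but for the lowest value, above the NF-YC minimum. This does not show that a partner would have been listed there, because partner levels need not equal NF-YA levels. Where a partner was called, its median level over that of NF-YA was 0.986 (NF-YB) and 0.962 (NF-YC) under 29 NF-YA tags. At 29 or more tags it was 0.682 and 0.609. A partner also had to reach a fold of 7 over input. The members' tags summed to 22479, which is 9.35% of the tags of all NF-YA sites and 0.196% of the kept NF-YA tags.

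Counts this small carry wide error. A count of 14 tags has an exact Poisson 95% interval of 7.65 to 23.5, a count of 18 one of 10.7 to 28.4, and a count of 28 one of 18.6 to 40.5. Near its limit the rule therefore divides sites whose counts have largely shared intervals, since 29 tags have an interval of 19.4 to 41.6. This does not hold far from the limit, as members had as few as 14 tags and NF-YA-only regions above it up to 141. Just inside the limit, 25 members had 28 tags, with a median fold over input of 11.2 (range 7.20 to 33.6). Just outside it, 32 regions had 29 tags and a median fold of 11.6 (8.69 to 34.8). Their median widths were both 60 bp. The 28-tag members of highest fold were chr7:54263791-54263831 (33.6), chr16:3884571-3884611 (33.6) and chr6:85360911-85361131 (23.98), in mm9 coordinates. The 29-tag regions of highest fold lay at chr5:8997251-8997291, chr5:135602151-135602191 and chr5:147707371-147707651, each with a fold of 34.8.

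Most weak NF-YA sites had no partner, and the share fell as the tag count rose. Of the 1884 NF-YA sites with under 29 tags, 1193 (63.3%, 61.1 to 65.5) had no NF-YB or NF-YC site chained to them. At 14 tags, 190 of 225 sites were alone (84.4%, 79.0 to 88.9), 25 had NF-YB, 8 had NF-YC and 2 had both. At 18 tags, 132 of 177 were alone (74.6%, 67.5 to 80.8). At 28 tags, 25 of 71 were alone (35.2%, 24.2 to 47.5), 17 had NF-YB, 14 had NF-YC and 15 had both. Grouped, the share alone was 76.5% of 690 sites with 14 to 17 tags, 62.4% of 729 with 18 to 23 tags and 45.2% of 465 with 24 to 28 tags. Both the tag count and the partner status define the members, so this is a description of how the rule divides the list. Beyond the limit the share alone lay between 24.2% and 47.9% at each tag count from 29 to 40, with no step at 29.

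**Figure D1:**
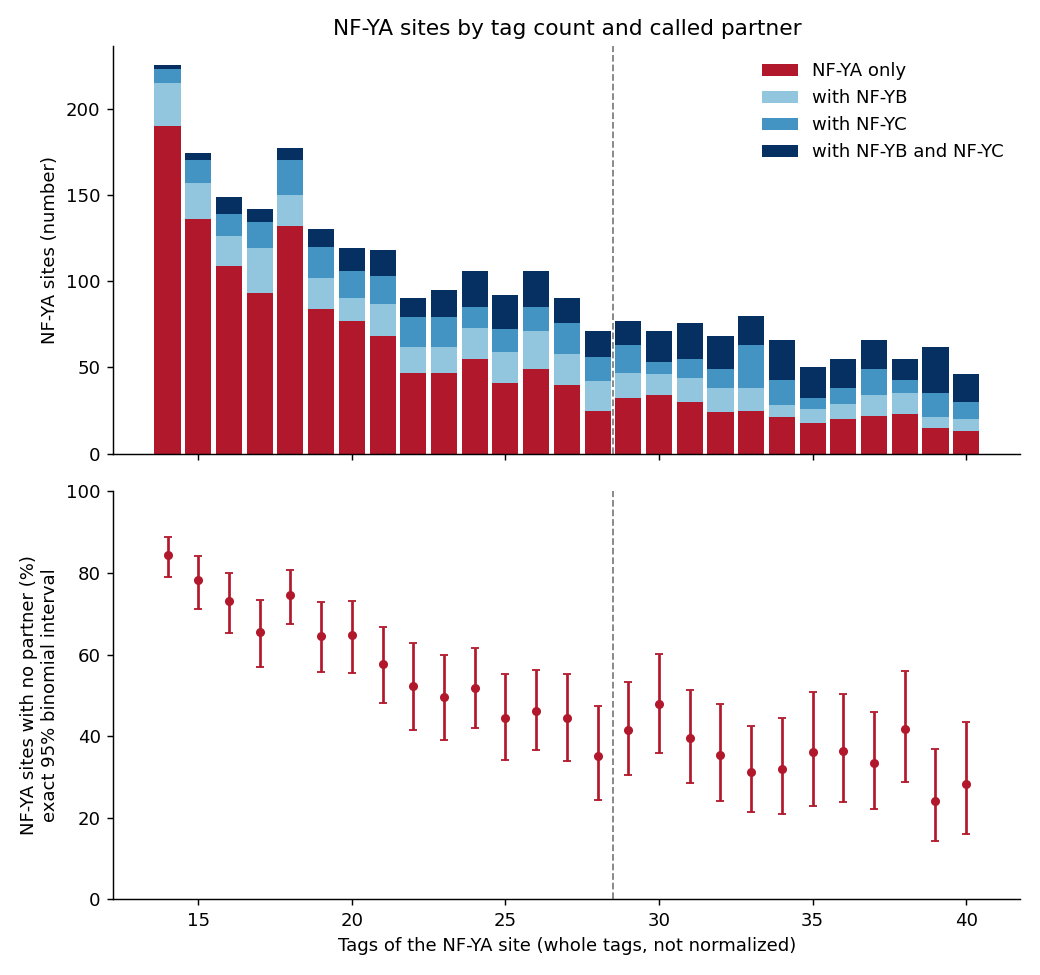
Upper panel: number of NF-YA sites at each tag count from 14 to 40, stacked by called partner. Lower panel: percent of those sites with no partner, with exact 95% binomial intervals; the dashed line marks the limit of 29 tags, and the share falls from 84.4% at 14 tags to 35.2% at 28.

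Where a partner was called at an NF-YA region of under 29 tags, its own tag count was also low. The 464 such regions with NF-YB had a median of 25 NF-YB tags (quartiles 18.8 and 35, range 15 to 108), and 34.3% of them had 20 tags or fewer. The 408 with NF-YC had a median of 20 NF-YC tags (16 and 26, range 14 to 121), and 50.5% had 20 or fewer. At regions with 29 or more NF-YA tags those shares were 5.37% for NF-YB and 8.45% for NF-YC. Scaled to kept tags, the partner's level divided by the NF-YA level had a median of 0.986 for NF-YB and 0.962 for NF-YC at the weak regions, and 0.682 and 0.609 at the stronger ones. The weak and stronger regions were split by the NF-YA tag count, which also divides these ratios. A higher ratio at the weak regions is thus partly built in by the split. Only partners above the minimum of their list enter these ratios. The members are the regions for which no such ratio exists.

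Fold enrichment, the authors' ratio of site tags to scaled input tags, had a median of 10.8 among the members (quartiles 8.39 and 17.99, range 7.20 to 33.6). It is part of the same comparison with input that supplied the tags, so it too is descriptive. Regions of all 3 subunits with NF-YA under 29 tags (184) had a median NF-YA tag count of 23 and a median fold of 15.6, and regions with 1 partner and NF-YA under 29 tags (504) had 21 tags and a fold of 13.2. The regions of NF-YA alone with 29 or more tags had a median fold of 11.7, close to the members' in spite of their higher tag counts. The members' p-values, as the caller gave them, ran from 5.6e-05 to 0.00087.

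The folds took few distinct values. For 1082 of the 1193 members (90.7%) the fold equalled, within 0.005, the tag count over the product of a whole input count and 0.834, the NF-YA library's kept tags per input tag. That whole number was 1 for 383 members, 2 for 429, 3 for 196 and 4 for 74. The value 1 is the lowest that could be recovered and may stand for 0. Members with 1 input tag had a median fold of 19.2, those with 2 a median of 10.2, those with 3 a median of 7.99 and those with 4 a median of 7.79. In the other 111 members the fold matched no whole count. These sites were at least 100 bp wide, with a median width of 180 bp.

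The minimum fold of 7 set which input counts could occur at each tag count. A site with 3 input tags needed 18 NF-YA tags to pass, and one with 4 input tags needed 24. The number of members fell from 190 at 14 tags to 93 at 17 tags, and then stood at 132 at 18 tags, of which 43 had 3 input tags. It fell again to 47 at 22 and at 23 tags and stood at 55 at 24 tags, of which 19 had 4 input tags. The lowest fold, 7.20, was held by 68 members, with 18 to 28 tags.

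**Figure D2:**
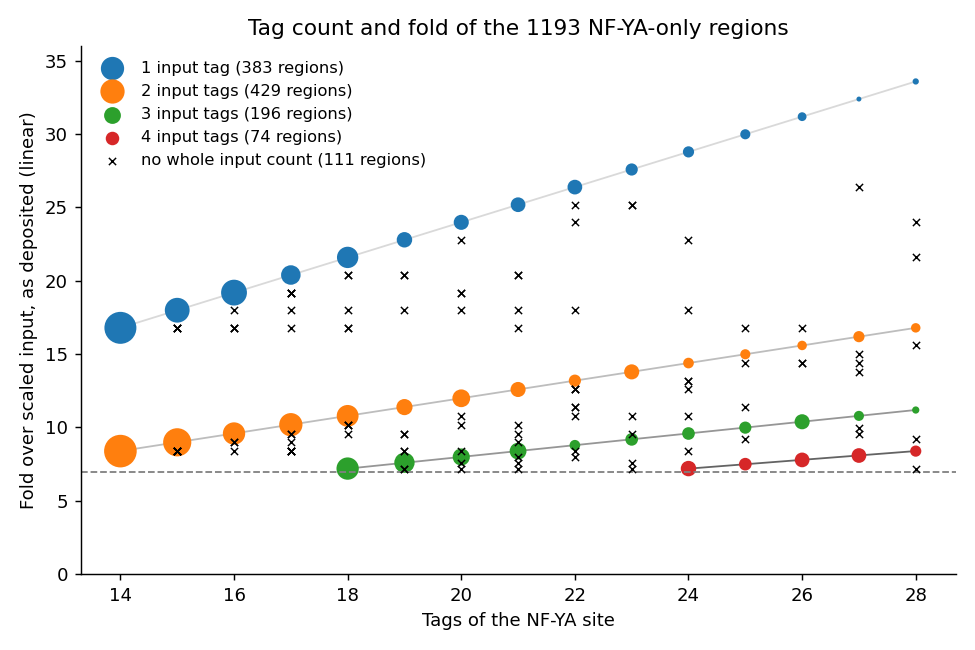
Deposited fold over input (linear) against tag count for the 1193 regions. Each coloured circle is a tag count and fold shared by members, with area proportional to their number. Grey lines give the fold expected for 1 to 4 input tags, and the dashed line is the minimum fold of 7. Crosses are the 111 regions whose fold gave no whole input count at their listed tag count. Circles for 3 input tags begin at 18 tags and those for 4 at 24.

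The members of highest fold, with ties taken in genome order, were chr7:54263791-54263831 and chr16:3884571-3884611, each with 28 tags and a fold of 33.6, chr18:5334931-5334971 with 27 tags and a fold of 32.4, and chr4:44078611-44078651 and chr5:104345711-104345851, each with 26 tags and a fold of 31.2. Another 3 members shared that last fold, at chr7:135605231-135605391 (160 bp wide), chr10:23532971-23533211 (240 bp) and chr14:56340751-56340991 (240 bp). All of the first 5 had an input value of 1, which their folds require, since members with 2 input tags reached at most 16.8. Their nearest NF-YB or NF-YC site lay 1021 kb, 12.1 kb, 655 kb, 53.2 kb and 518 kb away, in that order. These distances thus ran from 12.1 kb to 1021 kb, where the median over all members was 102 kb. Of the 68 members at the lowest fold, the first 5 along the genome were on chromosome 1, at chr1:71603631-71603671, chr1:88205971-88206011, chr1:121202031-121202071, chr1:166178931-166178991 and chr1:168060391-168060491. Their tag counts were 24, 18, 24, 24 and 24 and their input values, which the tag count and fold set, were 4, 3, 4, 4 and 4.

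Among weak NF-YA sites of like tag count, the share alone was higher over more input tags. The contrast was largest of the 3 classes under the limit at 24 to 28 tags, where the median tag count was 26 at each input level. There 24 of 101 sites with an input value of 1 were alone (23.8%, 15.9 to 33.3), 36 of 107 with 2 (33.6%, 24.8 to 43.4), 51 of 99 with 3 (51.5%, 41.3 to 61.7) and 74 of 112 with 4 (66.1%, 56.5 to 74.8). The intervals at 1 and at 4 input tags did not overlap. Being alone is part of the rule, and the tags a partner needed to be listed rose with the input, as the next paragraph gives. The contrast is thus a description. At 18 to 23 tags the shares were 57.9%, 59.0% and 66.8% for 1, 2 and 3 input tags, with overlapping intervals. At 14 to 17 tags they were 73.9% and 79.1% for 1 and 2 input tags, also overlapping. Above the limit, at 29 to 34 tags, the share alone was 17.3% of 75 sites at 1 input tag and 36 of 48 sites were alone at 5 (60.4% to 86.4%). At 35 to 40 tags it was 20.4% of 49 sites at 1 input tag, 9.38% of 64 at 2 and 49.0% of 51 at 5. This division by input was chosen after the data were seen.

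In the class of 24 to 28 tags, both partners were listed less often over high input. An NF-YB site was present at 61 of 101 sites with an input value of 1 (60.4%, 50.2 to 70.0) and at 23 of 112 with 4 (20.5%, 13.5 to 29.2). An NF-YC site was present at 50 of 101 (49.5%, 39.4 to 59.6) and at 21 of 112 (18.8%, 12.0 to 27.2). Sites with both numbered 34 at 1 input tag and 6 at 4. The same input library served all 3 lists, and the tags a partner needed to pass the minimum fold moved with the input. With 1 or 2 input tags the partner needed 15 tags for NF-YB and 14 for NF-YC, with 3 it needed 22 and 18, and with 4 it needed 29 and 24. The part of this requirement in the result was not tested.

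**Figure D3:**
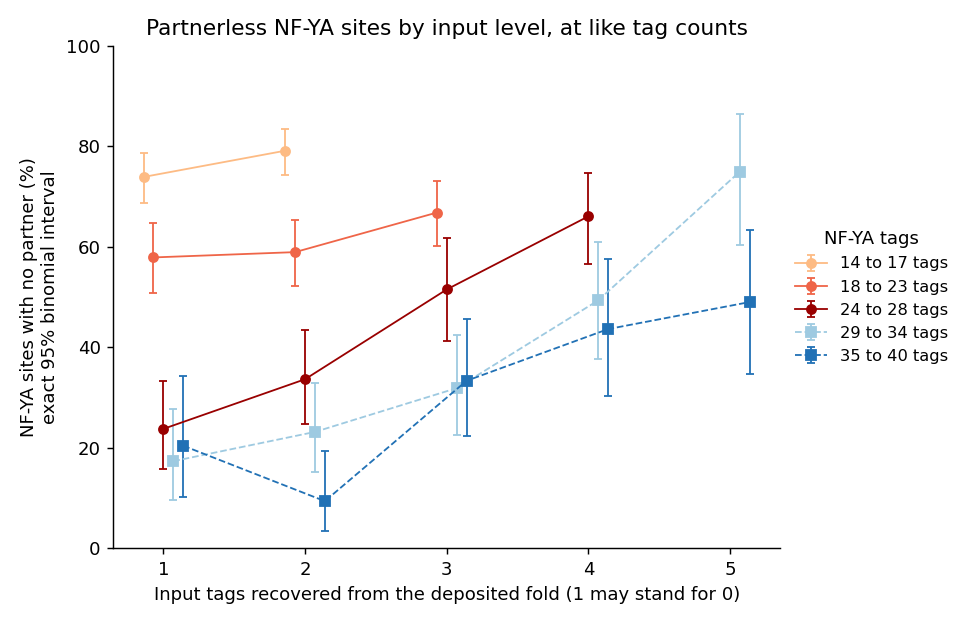
Percent of NF-YA sites with no partner against the input tags recovered from the fold, for 5 classes of NF-YA tag count, with exact 95% binomial intervals; points rest on 48 or more sites and are set apart sideways for legibility. The line for 24 to 28 tags goes from 23.8% at 1 input tag to 66.1% at 4.

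Member sites were short, as the caller's intervals generally were. The median width was 60 bp (quartiles 40 and 140, range 40 to 480), 329 members were 40 bp wide and 286 were 60 bp wide. Sites wider than 60 bp made up 48.4% of the members (45.6 to 51.3), 92 of the 184 weak regions of all 3 subunits (42.6% to 57.4%), 48.8% of the weak regions with 1 partner (44.4 to 53.3) and 37.6% of the NF-YA-only regions with 29 or more tags (33.3 to 42.0), the last with an interval below that of the members. Very wide sites, over 200 bp, numbered 83 among the members (6.96%, 5.58 to 8.55), against 2.98% (1.68 to 4.86) of the weak regions with 1 partner and 5.98% (3.02 to 10.4) of the weak regions of all 3 subunits. NF-YA-only regions with 29 or more tags had 35 of 500 (4.92% to 9.60%), so their interval spans the members' share. At 24 to 28 tags, 27 of 39 very wide sites were alone (69.2%, 52.4 to 83.0), against 42.8% (36.4 to 49.4) of 236 sites of up to 60 bp, and the intervals did not overlap. At 18 to 23 tags the figures were 77.8% (62.9 to 88.8) of 45 and 61.8% (56.5 to 66.8) of 361, with overlapping intervals. At 14 to 17 tags they were 84.0% (63.9 to 95.5) of 25 and 78.9% (74.3 to 82.9) of 369, also overlapping. Being alone is part of the rule, so these shares by width are a description. This division by width was not planned, and input level was not held alike in it. The widest members were chr5:86494211-86494691 and chr7:71537231-71537711, both 480 bp, with 21 and 22 tags, and chr11:88551251-88551691, 440 bp, with 24 tags. None of these 3 had a fold that gave a whole input count at its listed tag count, which held for 111 of all members (9.30%). Each of the 3 had another member as its nearest region, a share not given here for all members.

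Partner sites were next sought beyond the 200 bp that the rule excludes. An NF-YB or NF-YC site lay within 1 kb of 50 members (4.19%, 3.13 to 5.49), within 10 kb of 145 (12.2%, 10.4 to 14.1) and within 100 kb of 589 (49.4%, 46.5 to 52.2). The share within 1 kb is largely set by the chaining distance: it was 6.998% with chaining at 100 bp, 9.14% with overlapping intervals, 1.39% at 500 bp and 0 at 1000 bp. The median distance was 102 kb (quartiles 31.2 and 303 kb). For NF-YA-only regions with 29 or more tags the shares were 23 of 500 (2.94% to 6.82%), 11.6% (8.93 to 14.7) and 54.2% (49.7 to 58.6) and the median distance 83.7 kb, so the intervals overlapped at each of these distances. Of the 50 members within 1 kb, 33 lay within 500 bp, and only 12 more lay between 1 and 2 kb. The nearest site was of NF-YB for 24 of the 50 and of NF-YC for 26, and it held a median of 44 tags (range 15 to 207).

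**Figure D4:**
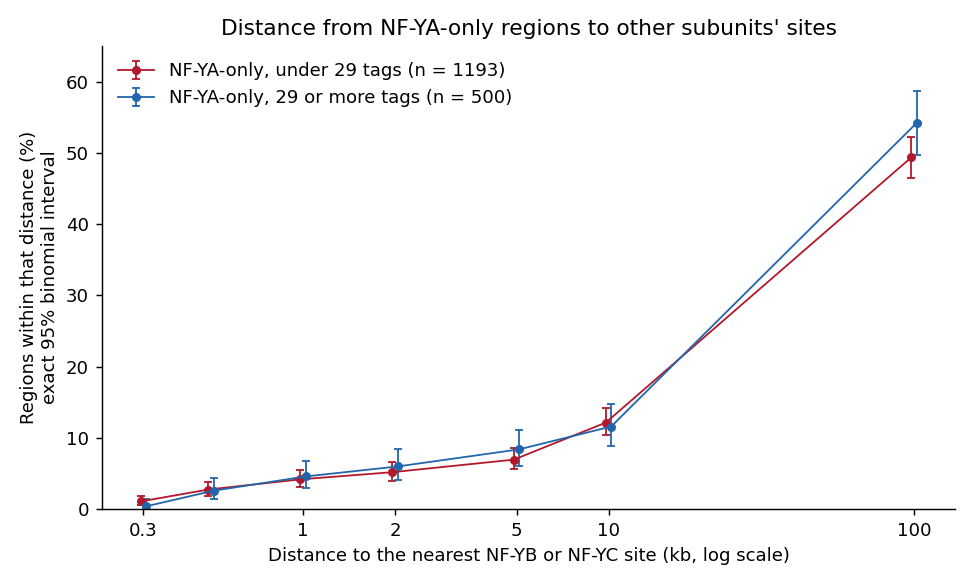
Percent of NF-YA-only regions with an NF-YB or NF-YC site within a given distance (kb, log scale), for the 1193 regions under 29 tags and the 500 with 29 or more, with exact 95% binomial intervals. Both sets start at 230 bp, and their intervals overlap at 1, 10 and 100 kb.

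The members closest to another subunit were separated from it by little more than the chaining distance. The nearest was chr12:36883411-36883471, with 17 tags, 230 bp from an NF-YB site of 30 tags. It was followed at 240 bp by chr7:19749691-19749891 (27 tags, beside an NF-YB site of 25 tags), chr8:4677691-4677731 (21 tags, beside one of 71) and chr10:79834471-79834671 (26 tags, beside one of 43), and at 250 bp by chr4:108874811-108874871 (25 tags, beside an NF-YC site of 51 tags). At 4 of these 5 the neighbouring region also held its own NF-YA site. The caller's estimated fragment length for NF-YA was 234 bp, and its part in these distances was not tested.

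Counting regions of every kind, 66 members had another region within 1 kb (5.53%, 4.30 to 6.98) and 210 within 10 kb (17.6%, 15.5 to 19.9). Among the remaining 4157 regions of the series the shares were 5.73% (5.04 to 6.48) and 17.8% (16.7 to 19.0), so the intervals overlapped. Of the neighbours within 10 kb, 69 of the 210 were regions of all 3 subunits (32.9%, 26.5 to 39.7), which make up 32.2% of all regions, and 50 were other members (23.8%, 18.2 to 30.2), which make up 22.3%. Regions with NF-YB as the single partner were 14 of the 210 (6.67%, 3.69 to 10.9), an interval below their share of 11.2% of all regions. Within 1 kb they were 6 of 66 (9.09%, 3.41 to 18.7), an interval that includes that share. This kind was picked from all the neighbour kinds counted within 1 and 10 kb. Within 1 kb, 28 of 66 neighbours were regions of all 3 subunits (42.4%, 30.3 to 55.2). Neighbours with an NF-YA site had a median of 48 NF-YA tags within 1 kb (60 members) and 39 within 10 kb (183 members), against 34 over all 4631 regions with NF-YA. Such medians are not given for the neighbours of other regions, so this is not shown to be particular to members.

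Some members stood alone over long stretches. No other region lay within 500 kb of 115 members (9.64%, 8.02 to 11.5), against 7.34% (6.56 to 8.17) of all other regions. These intervals overlapped narrowly, and the difference was not tested. The share was 5.92% (4.85 to 7.14) of the 1724 regions of all 3 subunits, an interval that lies below that of the members; the difference was not tested. It was 4.35% (1.90 to 8.39) of the 184 regions of all 3 subunits with NF-YA under 29 tags, 8.20% (5.95 to 11.0) of NF-YA-only regions with 29 or more tags and 9.52% (7.11 to 12.4) of weak regions with 1 partner, and these intervals overlap that of the members. The most isolated member, chrX:83022151-83022211, had 23 tags and a fold of 27.6 and lay 7510 kb from the next region. The following were chr5:16344971-16345031 (20 tags, 4043 kb), chr1:145851171-145851491 (16 tags, 3709 kb), chr2:97306471-97306531 (20 tags, 3308 kb) and chr7:66483791-66483851 (15 tags, 3178 kb). Of these 5, all but the one on chromosome 2 had an input value of 1, and that one had 3. Over all members the value was 1 for 383 (32.1%). The 5 were picked for their distance, and a link with input was not tested.

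Members were found on all chromosomes but Y, in numbers that followed the other regions. Chromosome 7 carried 102, chromosome 11 carried 99 and chromosome 5 carried 97. Chromosome 11 was the densest, with 0.834 members per Mb between its first and last site, against 0.469 over the genome, and the X chromosome was the sparsest of those with members, at 0.213 per Mb. As a share of the regions of each chromosome, members ranged, where there were any, from 18.1% on chromosome 9 (13.7 to 23.2) to 27.5% on chromosome 14 (20.5 to 35.4), with 26.6% on the X chromosome (19.1 to 35.1). None of the 21 intervals excluded the share of 22.3% over the whole series. Chromosome Y had 5 regions and no member, and an interval reaching 52.2%.

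**Figure D5:**
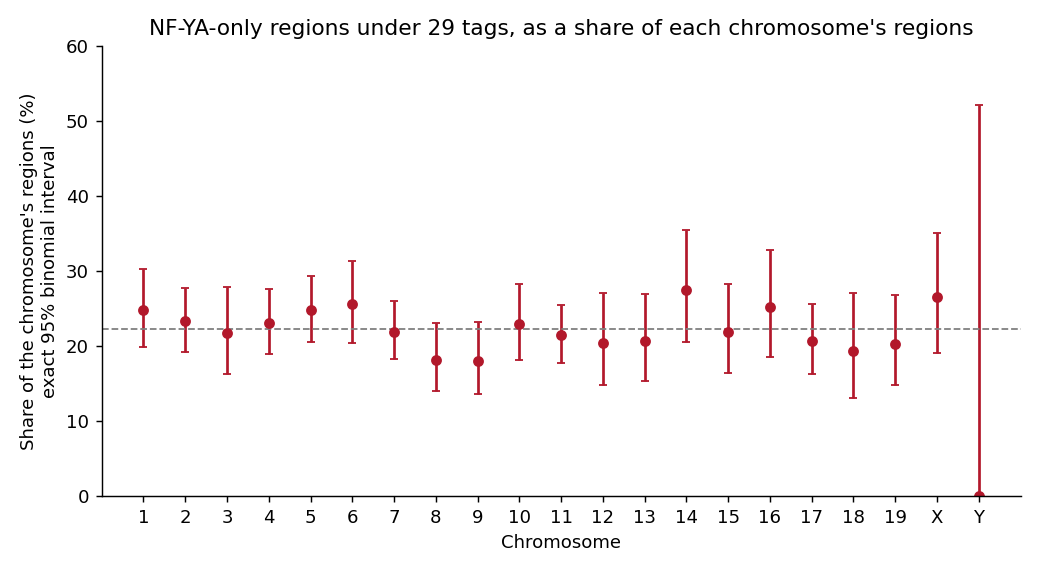
Members as a percent of the regions of each chromosome, with exact 95% binomial intervals; the dashed line is the share of 22.3% over all regions. Chromosome Y rests on 5 regions.

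Most windows of 100 kb that held members held 1. Such counts are not given here for other regions. The share with another region within 10 kb was 17.6% for members and 17.8% for all other regions. The 1193 members fell into 1091 windows of 100 kb, of which 997 held 1 member, 87 held 2, 6 held 3 and 1 held 4. The window with 4 lay on chromosome 19 from 7000001 to 7100000. Its members were chr19:7016991-7017091 (24 tags, fold 28.8), chr19:7048931-7048991 (16 tags, fold 9.59), chr19:7054351-7054511 (20 tags, fold 12.0) and chr19:7070611-7070711 (18 tags, fold 21.6). The window held 2 further regions, one of all 3 subunits at chr19:7054951-7055071 whose NF-YA site had 51 tags and whose partner sites had 30 (NF-YB) and 29 (NF-YC), and one of NF-YA and NF-YB at chr19:7067091-7067131 with 86 and 139 tags. The third member lay 587 bp from the first of these and the fourth 3.55 kb from the second.

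On chromosome 13, where members made up 20.7% of the regions (15.3 to 26.9) against 22.3% over the series, the 3 windows of 100 kb with most regions, which begin at 21800001, 23600001 and 23800001, together held 30 regions, 14 of them with all 3 subunits, and 1 member. That member, chr13:23655251-23655291, had 22 tags and a fold of 26.4 and lay 7.19 kb from the next region. These windows were picked for their number of regions, after the data were seen, while the window on chromosome 19 was picked for its number of members, so they are not compared.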

How the data were processed

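Chromatin immunoprecipitation and sequencing gave 1 library each for NF-YA, NF-YB and NF-YC, and the input entered only as the caller's background. Per the submitters' processing notes, Bowtie was the aligner and mm9 the build; the aligner's settings are not given in the sources. The authors called sites in each library with SISSRs 1.4 against the input, per the file headers, with an e-value of 10, a p-value threshold of 0.001, a window of 20 bp, a mappable fraction of 0.80 and 2 directional tags on each side. The deposited tag counts are whole tags per site with 1 tag kept per position, which removes duplicates and caps strong sites more than weak ones. The deposited fold is the ratio of tags to scaled input, at least 7. At 111 members the listed tag count did not give it with a whole input count. The deposited p-value is the caller's own. Neither value was recomputed.

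Sites were joined as described in the first paragraph of the results, with positions as deposited. Shares carry exact (Clopper-Pearson) 95% intervals and tag counts exact Poisson intervals. Neighbouring regions are not independent, so the intervals cover counting error only and no test was made. Regions named with coordinates were the 5 of highest and the 5 of lowest fold, the 3 widest, the 5 nearest to another subunit's site, the 5 most isolated, 3 on each side of the tag limit and those of the fullest 100 kb window, with ties in genome order. The members, parts and lists were chosen with earlier results of these data known. Alternatives changed the chaining, the thresholds, the lists and the tag limit. The code was tested on simulated lists. Gene annotation and sequence of mm9 were not used here, so genes, promoters and CCAAT boxes are not reported. Software was Python 3.11.15, numpy 2.4.6, pandas 2.3.3, scipy 1.17.1 and matplotlib 3.10.9.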

Additional observations from a re-analysis of the deposited data

How the results depend on the processing

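Of 81 alternative values for 10 results, 54 stayed within the interval of the reported value or, for the number of members, within 1.5 times it. The 1193 members became 782 with a fold of at least 10 in every list and 563 with at least 20 tags, which remove sites, and lay between 1038 and 1474 in the other settings. The share of weak NF-YA sites alone (63.3%) was 60.3% with chaining at 1000 bp, 66.8% with overlapping intervals, 65.6% at a fold of 10, 78.2% without the NF-YB list, 75.3% without the NF-YC list, 68.1% for sites under 25 tags and 59.3% for those under 34. The share with a partner site within 1 kb (4.19%) was 6.998% with chaining at 100 bp, 1.39% at 500 bp, 0 at 1000 bp by construction, 9.14% with overlapping intervals and 2.94% at a fold of 10. The share with a region within 10 kb (17.6%) was 20.0% with chaining at 100 bp, 14.6% at 500 bp, 12.6% at 1000 bp, 21.9% with overlapping intervals, 13.7% at a fold of 10, 14.9% at 20 tags and 45.3% for 50 kb. The median fold of 10.8 became 16.8 at a fold of 10 and 12.6 at 20 tags. At 24 to 28 tags, the shares alone at 1 and 4 input tags (23.8% and 66.1%) became 50.5% and 81.2% without the NF-YB list and 40.6% and 79.5% without the NF-YC list; these settings were chosen after seeing the data. The share was higher at 4 input tags than at 1 in each of the 6 settings run for it. These settings changed the chaining or left out a partner list. None changed the minimum fold, so they cannot show its part in the contrast. The values for chromosomes 9 and 14, chosen as lowest and highest, stayed within their intervals. No paired analysis was possible because there was 1 library per subunit, so leaving out replicates could not be done either. The settings planned for CCAAT boxes and gene starts were not run, for want of an mm9 genome. Depth and the minimum fold limit every statement on partners: below 14 or 15 tags, or below a fold of 7, a site is not listed.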
